A study of Mus musculus with 72 samples.

Results

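The retrieval of a contextual fear memory was examined in the hippocampus of mice by comparing the 9 arrays of the retrieval group, RT30, with the 9 arrays of its handled control group, CC30. The arrays were chosen by their labels alone, and they are 18 of the 72 arrays of the series. All mice were adult male C57BL/6J animals of 2 months, and each array holds the RNA of both hippocampi of 1 mouse. RT30 mice were handled on 3 days, then trained with a foot shock of 2 s at 1.5 mA that ended 2.5 min after they entered the chamber. At 24 h after training they were returned to the chamber for 5 min, and the tissue was taken 30 min later. CC30 mice were handled only, were never placed in the chamber, and gave their tissue at a matched hour of the day. Values of 2 other groups of 9 mice are set beside them: FC30, taken 30 min after training, and FC24, taken 24 h after training without a return to the chamber. RT30 and CC30 therefore differ in the earlier training, in the return to the chamber and in what the mice recalled there. No group of never shocked mice was placed in the chamber, so recall and exposure to the chamber cannot be told apart.

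Recall of a fear memory reactivates neurons of the hippocampus, and calcium entry and kinase signalling in these cells switch on immediate early genes through factors such as CREB and SRF that are already bound at their promoters. Their transcripts appear within minutes without new protein synthesis. Some encode transcription factors that act on later genes, and others act directly at synapses or shut the signalling down again. The same genes answer to novelty, stress and many other stimuli, so their induction marks recent activity rather than a given memory.

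The arrays carry 35556 probe sets, groups of short DNA probes that each report the level of a transcript, and 21218 of these are listed with 1 gene symbol. All levels below are log2 RMA values after the first principal component, the largest axis of variation among the 72 arrays, had been subtracted. A log2 fold change is the difference of 2 group means on that scale, and its error is the standard error (SE) of the limma fit, with 9 mice in each group. Two-sided limma p values were adjusted by the method of Benjamini and Hochberg over the whole array, and a probe set is said to be called where the result was under 0.1. Array medians lay between 5.82 and 5.87 before the subtraction. On PC1 replicate 3 of CC30 stood apart from the other CC30 mice, and no RT30 mouse stood apart on PC1, PC2 or PC3. Mean levels of the neuron markers ranged from 10.72 to 10.78 in CC30 and from 10.68 to 10.77 in RT30, and those of the dentate granule markers from 8.02 to 8.43 and from 8.03 to 8.25. The choroid plexus markers varied most between mice, from 5.16 to 6.66 in CC30 and from 5.27 to 6.34 in RT30, and 0 of the 10 measured was called.

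RT30 differed from CC30 in few transcripts and by small amounts, and most of the differences were rises. Among probe sets with 1 gene symbol the largest rises were those of Snord14e, a small nucleolar RNA, and of the early genes Egr2, Arc, Fos, Dusp1 and Nr4a1. The largest falls were those of the microRNA genes Mir219a-2 and Mir26a-1. Between RT30 and CC30 99 probe sets were called, which is 0.278% of those tested. Of these, 66 were higher in RT30 (0.186% of those tested) and 33 were lower (0.0928%), with a median change of 1.25-fold. At an adjusted p under 0.01 there were 28 calls (0.0787%), 21 higher and 7 lower. Among the 99, 56 are listed with 1 gene symbol, 6 with several and 37 with none. In bulk tissue a lower level can mean fewer cells of a type or less RNA in each cell, and these cannot be told apart.

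**Figure D1:**
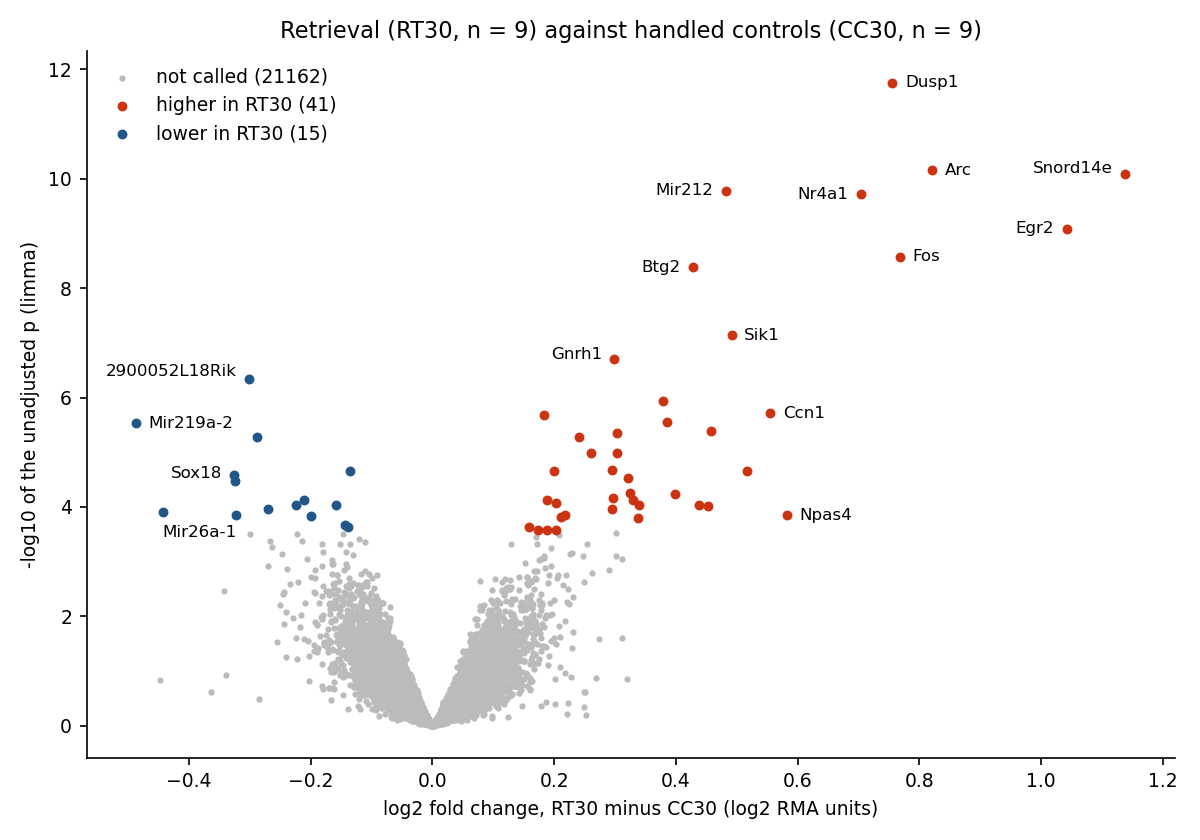
All 21218 probe sets with 1 gene symbol, with the log2 fold change between RT30 and CC30 on the x axis and -log10 of the unadjusted limma p on the y axis. Red points are the 41 probe sets called as higher in RT30 and blue points the 15 called as lower; the rises of Snord14e, Egr2, Arc, Fos, Dusp1 and Nr4a1 lie farthest from 0, and no fall passes a size of 0.49.

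Among the called probe sets the difference was seen in nearly every mouse. They were called for a large shift over the spread of these same mice, so the counts describe them and are no separate support. Of the 41 called probe sets with 1 symbol that were higher, 39 were above the CC30 mean in 9 of 9 RT30 mice, and the other two in 8 of 9. All 15 that were lower were below it in 9 of 9. The levels of the groups did not overlap at all in 15 of the 41 and in 3 of the 15. Over all 35556 probe sets, every RT30 mouse lay above every CC30 mouse in 0.0562% and below every CC30 mouse in 0.0253%.

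Some calls were lost without the CC30 mouse that stood apart, although their sizes changed little. Without replicate 3 of CC30, 66 probe sets were called (47 higher, 19 lower), and 64 when PC1 was also found again without it. In the latter setting 20 of the 56 called probe sets with 1 symbol had adjusted p values from 0.11 to 0.20. The 13 higher ones were those of Ctsk, Mir32, Ddit4, Gadd45b, Rhox9, Klf2, Adam1a, both of Snora21, Acrbp, Siah2, Zfp948 and a transcript whose symbol is a sequence accession. The 7 lower ones were those of Mir181c, 4632427E13Rik, Adamts8, She, Mir128-2, Mir9-1 and Mir26a-1. None of these changed direction, and over the 14 other settings tried the log2 fold change stayed between 0.42 and 0.45 for Ctsk and between -0.48 and -0.41 for Mir26a-1. Leaving out a mouse also removes a sample, and the part of each in the lost calls was not tested. With the methods' t-test and local false discovery rates from code written here, in place of limma, 33 probe sets were called (29 higher, 4 lower). Of the early genes, Npas4, Junb, Fosb, Ddit4, Gadd45b and Klf2 were not called there, and of the 15 falls with 1 symbol Rad52 and 2900052L18Rik were the ones still called. The study, with the locfdr package, reported more falls after retrieval than these 4. Calls lost with the code written here are therefore not calls lost with the study's own procedure.

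The immediate early transcription factors held the highest share of calls of any gene list. Of 31 measured, 9 were higher in RT30 and 0 were lower, against 0.213% of all 18820 genes higher and 0.0744% lower when each gene is taken by its brightest probe set. The median log2 fold change of the list was 0.09, and that of all genes -0.01. With the activity-induced effectors and the MAP kinase phosphatases, 19 of 82 early genes were higher and 0 were lower. Without replicate 3 of CC30, and with PC1 found again, 16 of the 82 were higher. With the replicate number fitted as a block, 13 of the 82 were higher. The other 21 of the 40 higher genes are not on these lists.

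Egr2 (probe set 10363735), a zinc finger factor of the EGR family, lay between 5.06 and 5.47 in CC30 with a median of 5.28, and between 5.73 and 6.56 in RT30 with a median of 6.41. The groups did not overlap, although replicate 7 of RT30 was well below the other RT30 mice. Egr2 was higher by 1.04 ± 0.09 (log2, SE), or 2.06-fold (adjusted p = 4.82e-06). Fos (probe set 10397346), which pairs with Jun proteins to form AP-1, had its lowest, median and highest level at 4.38, 4.71 and 4.93 in CC30 and at 5.23, 5.35 and 5.77 in RT30. Again no RT30 mouse reached down to a CC30 mouse. Fos was higher by 0.77 ± 0.07, or 1.70-fold (adjusted p = 1.35e-05). Nr4a1 (probe set 10427035), an orphan nuclear receptor, rose from 8.55, 8.62 and 8.95 to 9.21, 9.41 and 9.50, in the same order. It was higher by 0.70 ± 0.06 (adjusted p = 1.36e-06), without overlap, and RT30 mice lay closer together than CC30 mice. Btg2 (probe set 10357875), an antiproliferative co-regulator of transcription, stood at 6.87, 7.03 and 7.07 in CC30 and at 7.27, 7.44 and 7.59 in RT30. It was higher by 0.43 ± 0.04 (adjusted p = 1.63e-05) with no overlap.

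Other early factors rose with overlap between the groups. Npas4 (probe set 10464905), a factor induced in neurons by calcium and little else, ranged from 6.19 to 7.31 in CC30 and from 6.94 to 7.43 in RT30, with medians of 6.47 and 7.19. It was higher by 0.58 ± 0.12 (adjusted p = 0.0673), and 2 high CC30 mice reached into the RT30 range. Junb, a partner of Fos, was higher by 0.45 ± 0.09 (adjusted p = 0.0531), and Fosb by 0.32 ± 0.06 (adjusted p = 0.0256). Egr1, the best known member of the EGR family, was higher by 0.30 ± 0.05 (adjusted p = 0.0214). It was tightly held between 8.92 and 9.08 in RT30 and spread from 8.47 to 8.96 in CC30. Klf2 was higher by 0.21 ± 0.04 (adjusted p = 0.0712). Most members of the list were not called. Egr4 had a log2 fold change of 0.25 ± 0.06 (adjusted p = 0.173), Egr3 of -0.02 ± 0.04 (adjusted p = 0.985), Jun of 0.02 ± 0.04 (adjusted p = 0.98) and Nr4a2 of 0.09 ± 0.06 (adjusted p = 0.864).

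**Figure D2:**
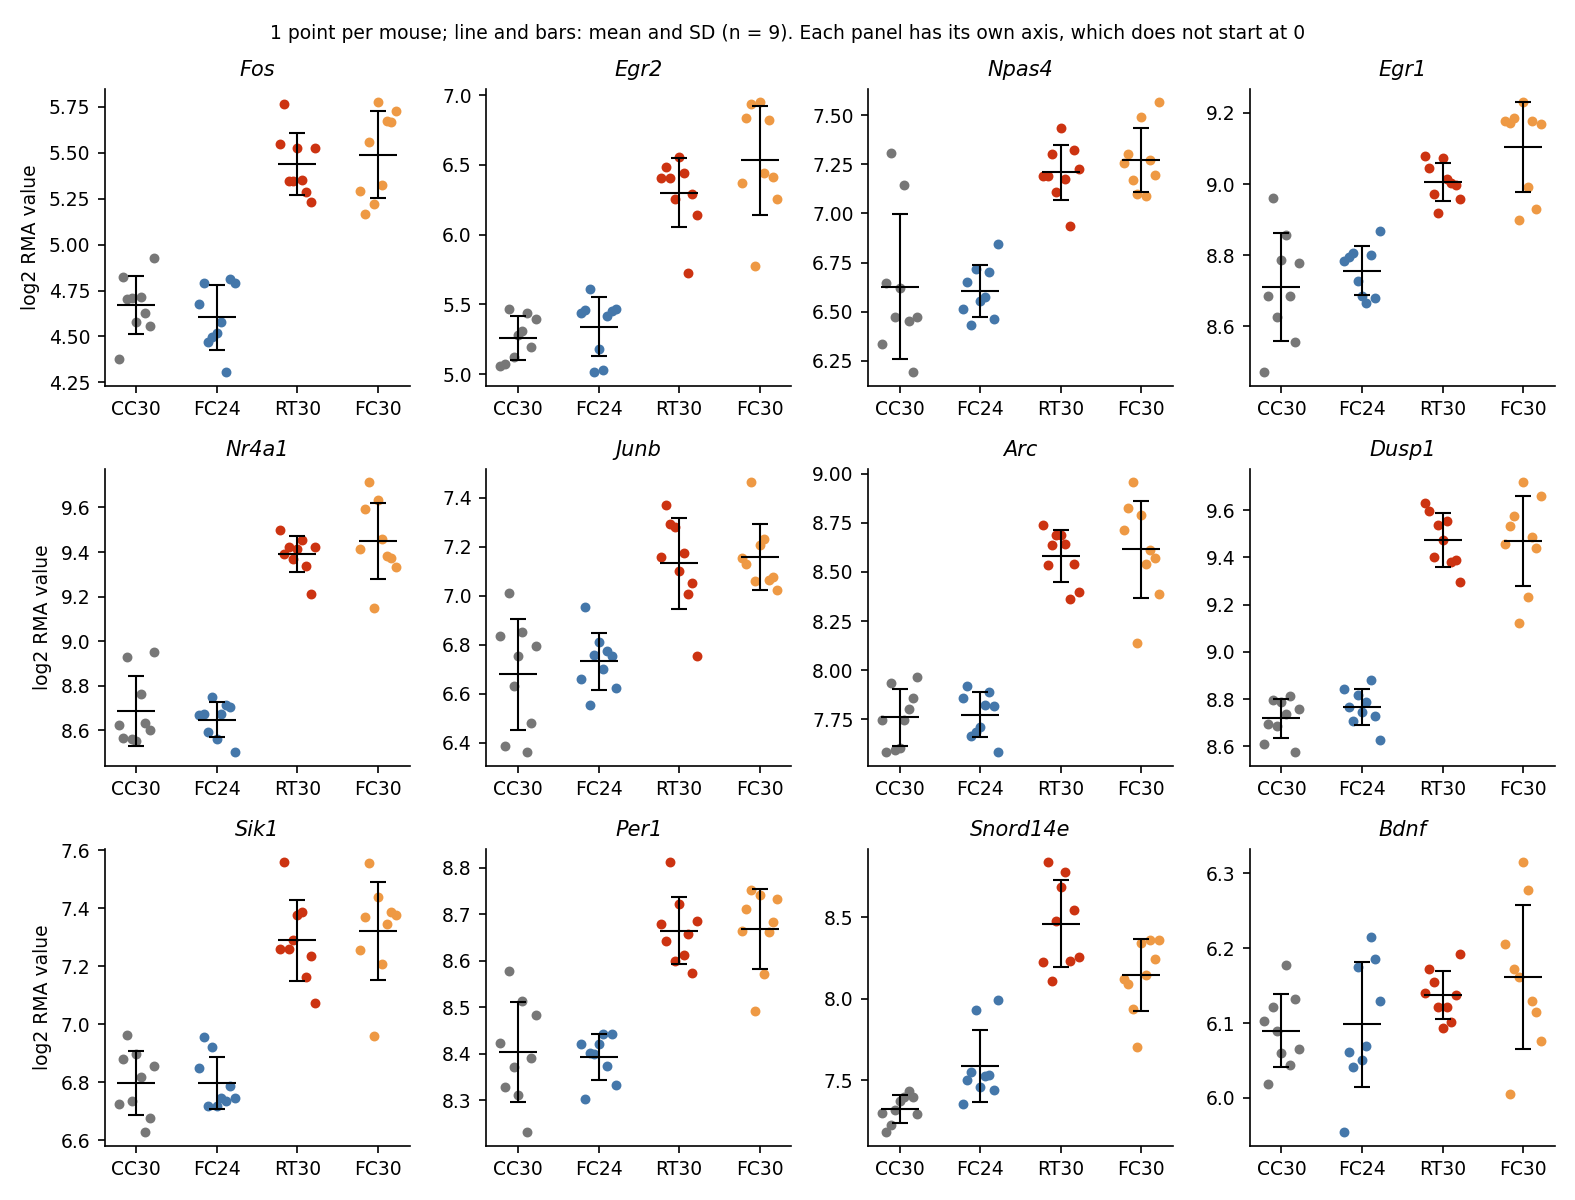
Log2 RMA values of 12 genes, with 1 point for each mouse and lines and bars for the mean and SD of 9 mice; every panel has its own y axis, which does not start at 0, and the x axis gives the groups CC30, FC24, RT30 and FC30. For Fos, Egr2, Nr4a1, Arc, Dusp1, Sik1 and Snord14e no RT30 mouse overlaps a CC30 mouse, whereas the Bdnf levels of all 4 groups overlap.

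Of 40 activity-induced effectors, 8 were higher and 0 were lower. Arc (probe set 10429491), which controls the number of AMPA receptors at active synapses, had its lowest, median and highest level at 7.58, 7.75 and 7.97 in CC30 and at 8.36, 8.64 and 8.74 in RT30. No level was shared between the groups. Arc was higher by 0.82 ± 0.06, or 1.77-fold (adjusted p = 9.77e-07). Sik1 (probe set 10449741), a kinase that restrains CREB by acting on its coactivators, ranged from 6.63 to 6.96 in CC30 and from 7.08 to 7.56 in RT30. It was higher by 0.49 ± 0.06 (adjusted p = 0.000199). The extracellular matrix protein gene Ccn1 was higher by 0.55 ± 0.08 (adjusted p = 0.00382), and Apold1, a gene of activated endothelium, by 0.46 ± 0.07 (adjusted p = 0.00593), both without overlap. Ddit4, an inhibitor of mTOR signalling, was higher by 0.33 ± 0.07, Gadd45b, which acts in stress responses and DNA demethylation, by 0.30 ± 0.06, and the kinase gene Sgk1 by 0.24 ± 0.04. Among effectors that were not called, Homer1 had a log2 fold change of 0.06 ± 0.03 (adjusted p = 0.807) and Nptx2 of 0.00 ± 0.05 (adjusted p = 1). Bdnf, the neurotrophin gene, had one of 0.05 ± 0.03 (adjusted p = 0.789), with a 95% interval from -0.01 to 0.10. The probe set of Bdnf does not separate the transcripts that start at its different promoters.

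Dusp1 (probe set 10449284), a phosphatase that switches off MAP kinases in the nucleus, had the smallest p of the whole array. Its lowest, median and highest level were 8.58, 8.74 and 8.81 in CC30 and 9.30, 9.47 and 9.63 in RT30. The gap between the highest control mouse and the lowest retrieval mouse was wider than the range within either group. Dusp1 was higher by 0.76 ± 0.05, or 1.69-fold (adjusted p = 6.25e-08). Dusp5, which acts on ERK, was higher by 0.38 ± 0.05 (adjusted p = 0.00261), and 1 of the 9 RT30 mice lay within the CC30 range. The other 9 of the 11 phosphatases were not called. Dusp6, which also acts on ERK, had a log2 fold change of 0.15 ± 0.06 (adjusted p = 0.536), and Dusp4 of 0.09 ± 0.06 (adjusted p = 0.848).

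The genes that rose were searched for the CRE, the DNA element TGACGTCA that CREB binds, in windows of 300 bases that run from 250 bases before to 50 bases after each gene's start (RefSeq, GRCm38.p6). Such windows were listed for 24 of the 40 higher genes, 35 windows in all, since Egr2, Per1, Sgk1 and Tnfrsf25 have several that can overlap. Both strands were searched. The full element was present in 2 of the 35 windows (5.71%), in 1.79% of all 32851 windows and in 2.41% of the windows of genes tested here. Its core TGACG, which the full element also holds, was present in 20 of the 35 (57.1%), in 20.8% of all windows and in 25.1% of the windows of genes tested here. Early genes that were not called have 64 windows, of which 33 hold the core (51.6%), 7 the full element (10.9%) and 12 the EGR site named next (18.8%). The EGR site GCGNGGGCG was present in 7 of the 35 (20%), in 5.55% of all windows and in 8.22% of those of genes tested. The CArG box, which SRF binds, was present in 5 (14.3%), 4 of which are windows of Egr2 and 1 that of Dusp5. It was present in 1.63% of all windows and in 1.41% of those of genes tested. The AP-1 site was present in 0 of the 35, in 5.2% of all windows and in 4.5% of those of genes tested.

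Stretches of 30 bases upstream of 6 higher genes show these letters in capitals. The full element is shown for both genes that have it, and the core nearest to the start for the 4 early genes of largest rise that have a window with the core but not the full element. Dusp1 (chr17:26508597-26508626), Npas4 (chr19:4990123-4990152) and Btg2 (chr1:134079303-134079332) lie on the minus strand. Egr2 (chr10:67537802-67537831), Fos (chr12:85473812-85473841) and Nr4a1 (chr15:101266794-101266823) lie on the plus strand. The letters CGTCA are the core read from the other strand.
Dusp1: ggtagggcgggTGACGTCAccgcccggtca
Btg2: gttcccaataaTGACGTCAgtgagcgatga
Egr2: tatgggcagcgaCGTCAcgggtattgaaga
Fos: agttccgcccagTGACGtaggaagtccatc
Nr4a1: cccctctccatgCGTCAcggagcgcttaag
Npas4: gacgtcacgggaTGACGtcggaagtctggg
The marked letters end 136 bases before the start in Dusp1, 159 in Btg2, 51 in Egr2, 62 in Fos, 36 in Nr4a1 and 165 in Npas4. The match describes these windows only, and binding was not measured.

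Genes of stress hormone and clock signalling were represented by few members. Of 27 glucocorticoid-responsive genes 5 were higher and 0 were lower: Dusp1, Ddit4, Nfkbia, Per1 and Sgk1, of which all but Nfkbia are also on the early gene lists. Fkbp5, a sensitive glucocorticoid target, had a log2 fold change of 0.00 ± 0.06 (adjusted p = 1), and Tsc22d3, another, of 0.19 ± 0.05 (adjusted p = 0.145). Nfkbia, the inhibitor that holds NF-kB in the cytoplasm and is itself an NF-kB target, was the only called gene of 14 in that pathway. It ranged from 6.57 to 6.85 in CC30 and from 6.90 to 7.19 in RT30, without overlap, and was higher by 0.30 ± 0.05 (adjusted p = 0.00641). The subunit gene Rela had a log2 fold change of 0.02 ± 0.03 (adjusted p = 0.983). Per1, a repressor of the circadian clock and also a CREB target, was the only called gene of 19 on the clock list. It ranged from 8.23 to 8.58 in CC30 and from 8.57 to 8.81 in RT30, so that the groups touched, and was higher by 0.26 ± 0.04 (adjusted p = 0.0117). Per2 had a log2 fold change of 0.12 ± 0.06 (adjusted p = 0.719) and Per3 of 0.01 ± 0.05 (adjusted p = 0.998).

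The largest rise among probe sets with 1 symbol was that of Snord14e (probe set 10584580), a box C/D small nucleolar RNA encoded in an intron of Hspa8 that helps to process ribosomal RNA. Its lowest, median and highest level were 7.18, 7.31 and 7.43 in CC30 and 8.11, 8.48 and 8.84 in RT30. All RT30 mice stood far above all CC30 mice. It was higher by 1.14 ± 0.09, or 2.20-fold (adjusted p = 9.77e-07). A pair of probe sets listed with Snord14d, Snord14c and Hspa8 together were each higher by 0.84 ± 0.08. The 3 probe sets listed with Hspa8 alone, the constitutive heat shock protein gene that hosts these RNAs, had log2 fold changes of 0.05 ± 0.02, 0.03 ± 0.02 and 0.02 ± 0.02, and none was called. A probe set listed with Snord14a and its host Rps13 had one of -0.18 ± 0.05 (adjusted p = 0.322). Of 59 small nucleolar RNAs, 2 were higher and 0 were lower, the other being Snora21. Its 2 probe sets were higher by 0.20 ± 0.04 and 0.19 ± 0.04. The median of the 59 was 0.07. None of 5 spliceosomal and other small nuclear RNAs was called.

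MicroRNA genes made up 7 of the 15 falls with 1 symbol. Of 306 measured, 3 were higher and 7 were lower, against 0.213% and 0.0744% of all genes, and the 14 lower genes hold these 7. The 306 were picked by symbol and include long noncoding host genes of microRNAs, such as Mir17hg, Mir100hg and Mir99ahg. Without replicate 3 of CC30, 2 of the 306 were higher and 3 were lower. With the t-test and the local false discovery rates written here, 0 of the 7 falls stayed called. The study, with its own local false discovery rates, lists miR-219, miR-497 and miR-138-2 among the precursors lower after retrieval. Its list gives Mir128-2, Mir9-1 and Mir505, called here, as changed after training and not significant after retrieval. It also gives Mir9-2 as lower after retrieval, which was not called here, and does not hold Mir26a-1 or Mir32. The probe sets report RNA from the gene and do not separate the primary transcript, the hairpin and the mature microRNA. The main mature sequences of the 10 called genes and of Mir132 follow with the seed, bases 2 to 8 that pair with target transcripts, in capitals (RefSeq, GRCm38.p6).
miR-212-3p: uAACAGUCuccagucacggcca
miR-132-3p: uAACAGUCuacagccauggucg
miR-32-5p: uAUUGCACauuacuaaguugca
miR-505-3p: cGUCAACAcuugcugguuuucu
miR-219a-5p: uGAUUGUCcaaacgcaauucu
miR-26a-5p: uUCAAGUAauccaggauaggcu
miR-9-5p: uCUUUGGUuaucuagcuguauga
miR-497a-5p: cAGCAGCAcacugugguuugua
miR-128-3p: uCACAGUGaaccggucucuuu
miR-138-5p: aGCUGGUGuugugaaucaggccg
miR-181c-5p: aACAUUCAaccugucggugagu
The 11 genes hold 10 different seeds, since miR-212-3p and miR-132-3p share theirs.

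Mir212 (probe set 10378545) lies beside Mir132 on chromosome 11, in a cluster that CREB is known to switch on in active neurons. Its lowest, median and highest level were 6.15, 6.22 and 6.35 in CC30 and 6.65, 6.70 and 6.95 in RT30. The groups were far apart, and replicate 2 of RT30 was above the rest. Mir212 was higher by 0.48 ± 0.04, or 1.40-fold (adjusted p = 1.36e-06). Mir132 (probe set 10378547) ranged from 4.25 to 4.57 in CC30 and from 4.45 to 4.79 in RT30, and its log2 fold change was 0.13 ± 0.05 (adjusted p = 0.535). Only 221 bases separate miR-212-3p from miR-132-5p (chr11:75173443-75173464 holds miR-212-3p and chr11:75173723-75173744 miR-132-3p, both on the plus strand). Whether these changes differ was not tested. Mir505 was higher by 0.30 ± 0.05 (adjusted p = 0.0117) and Mir32 by 0.34 ± 0.07 (adjusted p = 0.0712), with 1 of 9 RT30 mice below the CC30 mean for Mir32.

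Among the falls, Mir219a-2 (probe set 10481378) had its lowest, median and highest level at 5.85, 5.98 and 6.34 in CC30 and at 5.38, 5.52 and 5.85 in RT30. The groups met only at their edges. It fell by 0.49 ± 0.07 on the log2 scale, or 1.40-fold (adjusted p = 0.00471). Mir26a-1 (probe set 10590071) ranged from 5.82 to 6.40 in CC30 and from 5.27 to 5.96 in RT30, and fell by 0.44 ± 0.09 (adjusted p = 0.0632). Mir9-1 fell by 0.32 ± 0.07, Mir497 by 0.29 ± 0.05, Mir128-2 by 0.27 ± 0.06, Mir138-2 by 0.21 ± 0.04 and Mir181c by 0.14 ± 0.03, with adjusted p values from 0.00698 to 0.0929. Several of these are abundant in neurons, and miR-138 and miR-128 are known from work on dendritic spines and excitability. miR-219a is best known from oligodendrocytes. Of 11 measured oligodendrocyte markers 0 was called, and their mean level ranged from 8.84 to 9.00 in CC30 and from 8.74 to 9.13 in RT30. Their part in the fall of Mir219a-2 was not tested.

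Other measured genes with the same seed were not called. There were 22 of these besides the 11 genes above, and their log2 fold changes lay between -0.18 and 0.11. Mir219a-1, Mir9-2, Mir9-3, Mir128-1 and Mir138-1 give the same mature sequence as a gene that fell. Mir219a-1 had a log2 fold change of 0.01 ± 0.06 (adjusted p = 0.998), Mir138-1 of -0.0049 ± 0.07 (adjusted p = 0.998) and Mir128-1 of -0.06 ± 0.08 (adjusted p = 0.969). Mir9-2 had the lowest of these, -0.18 ± 0.04 (adjusted p = 0.157). Genes whose bounds hold a called microRNA gene were not called either. Ctdspl, which holds Mir26a-1, had a log2 fold change of 0.02, Arpp21, which holds Mir128-2, of -0.08, Cercam, which holds Mir219a-2, of -0.08 and -0.07 in its 2 probe sets, Nup93, which holds Mir138-2, of 0.02 and Tmem245, which holds Mir32, of 0.05. RefSeq bounds were compared without regard to strand.

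**Figure D3:**
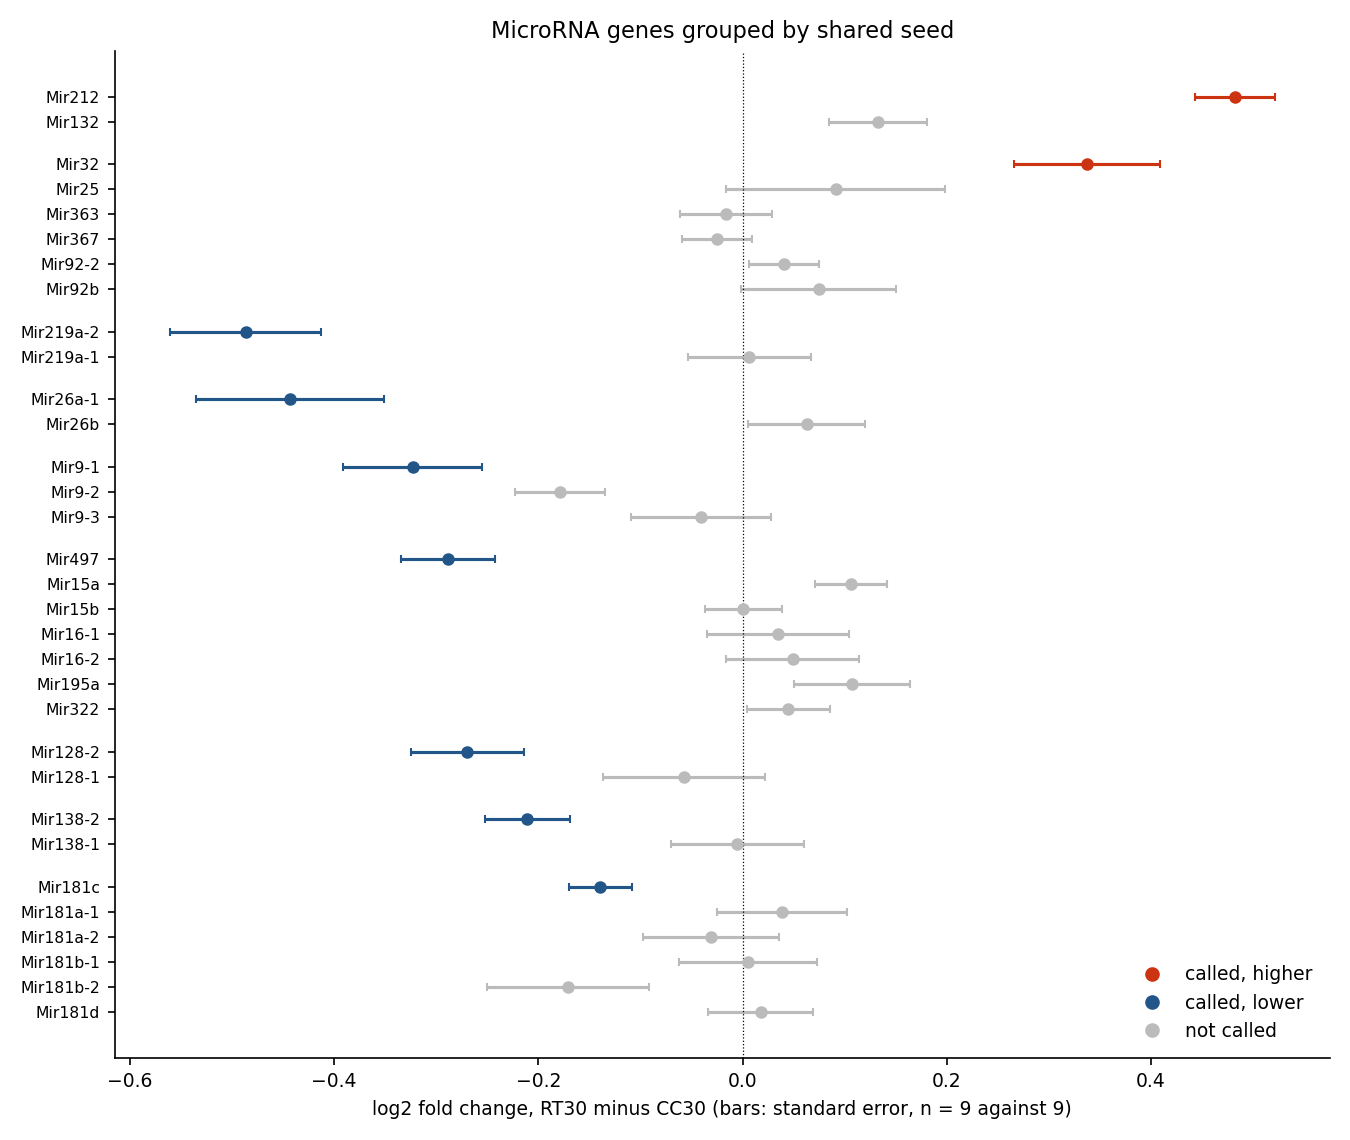
Log2 fold changes between RT30 and CC30 (x axis, with bars for the standard error, 9 mice against 9) of microRNA genes, grouped by the seed they share with a called gene at the top of each group. Mir212 and Mir32 were called as higher and 7 genes as lower, and the grey genes that share a seed with them lie between -0.18 and 0.13, with Mir181b-2 as low as the called Mir181c. Mir505 is not drawn, since no other measured gene has its seed.

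Besides microRNA genes, few named transcripts fell. Sox18 (probe set 10490731), a transcription factor of endothelial cells, had its lowest, median and highest level at 6.59, 6.69 and 6.82 in CC30 and at 6.07, 6.29 and 6.58 in RT30. No level was shared. It fell by 0.32 ± 0.06, or 1.25-fold (adjusted p = 0.0283). Cldn5, the tight junction protein of the blood-brain barrier, ranged from 8.89 to 9.21 in CC30 and from 8.77 to 8.93 in RT30, and fell by 0.20 ± 0.04 (adjusted p = 0.0673). These were the 2 of 23 endothelial markers that were called, and 0 was higher. Neither was called with the local false discovery rates written here, whereas the study reports Sox18 as lower after retrieval. The mean level of the 23 ranged from 7.17 to 7.33 in CC30 and from 7.10 to 7.28 in RT30, with a median log2 fold change of -0.05. The general endothelial marker Cdh5 had a log2 fold change of 0.00 ± 0.06 and Flt1 of 0.01 ± 0.04. Whether fewer endothelial cells had a part in these falls was not tested. The other named falls were those of She by 0.22 ± 0.05, Adamts8 by 0.16 ± 0.03, Rad52, a DNA repair gene, by 0.14 ± 0.02, and the unnamed transcripts 9430053O09Rik, 2900052L18Rik and 4632427E13Rik.

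**Figure D4:**
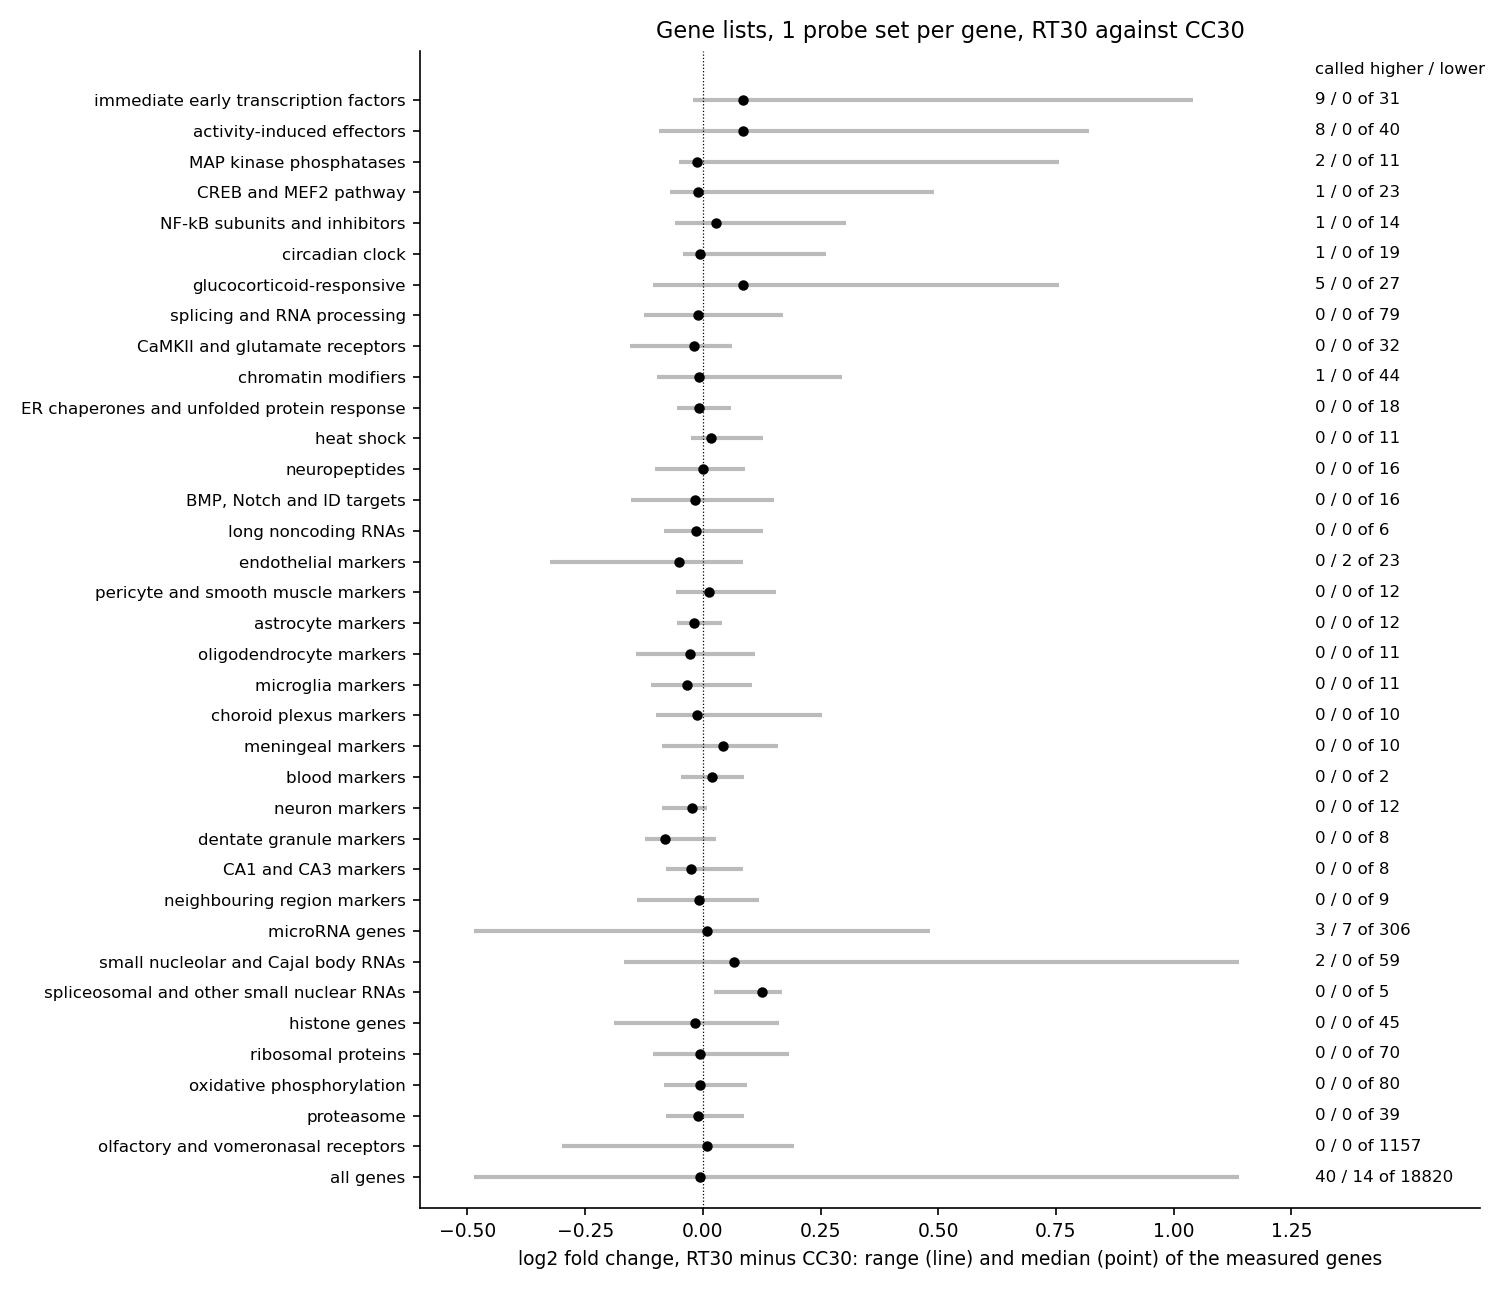
Each line spans the lowest to the highest log2 fold change between RT30 and CC30 (x axis) over the measured genes of a list, by the brightest probe set of each gene, and the point is the median; the columns at the right count the genes called as higher and lower. Lists with more than 1 call are the early gene lists, the glucocorticoid-responsive genes, the microRNA genes, the small nucleolar RNAs and the endothelial markers.

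Most other lists held no call. Of 79 splicing and RNA processing genes 0 was called by limma, with 1 higher and 3 lower at an unadjusted p under 0.05. Rbfox1 (probe set 10433403), a neuronal splicing regulator, ranged from 11.38 to 11.48 in CC30 and from 11.32 to 11.40 in RT30, and its log2 fold change was -0.05 ± 0.02 (adjusted p = 0.651). That of Prpf38b, a spliceosome component, was -0.10 ± 0.03 (adjusted p = 0.453). Both are given because the study reports them as lower after retrieval, with its local false discovery rates. It also found Rbfox1 lower by quantitative PCR in other mice. Over the 79 genes the log2 fold changes ran from -0.13 to 0.17 with a median of -0.01, and 22 were positive. Of 32 CaMKII and glutamate receptor genes 0 was called, and Camk2g had a log2 fold change of -0.03 ± 0.03 (adjusted p = 0.927). The study reports a rise of its protein after retrieval, which these arrays do not measure. Of 45 histone genes 0 was called, with 0 higher and 6 lower at an unadjusted p under 0.05. H2ac21, the newer symbol of the study's Hist2h2ab, ranged from 10.09 to 10.37 in CC30, from 9.94 to 10.23 in RT30 and from 10.06 to 10.17 in FC30. Its log2 fold change between RT30 and CC30 lay between -0.13 and -0.11 over the 14 other settings, and it was called in 0 of them. Among 44 chromatin modifiers only Gadd45b was called. No gene was called among 70 ribosomal protein genes, 80 genes of oxidative phosphorylation, 39 proteasome genes, 18 ER chaperones and unfolded protein response genes, 16 neuropeptide genes and 1157 olfactory and vomeronasal receptors. Markers of astrocytes, microglia, pericytes, meninges, neurons and of CA1 and CA3 held no call either. Of 8 dentate granule markers 0 was called, with a median log2 fold change of -0.08 and 1 of the 8 positive. Whether the share of granule cells differed between the groups was not tested.

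Other rises fell outside the lists. Tm6sf2, a protein of lipid export, was higher by 0.52 ± 0.09 (adjusted p = 0.0214). Gnrh1, the precursor of gonadotropin-releasing hormone, ranged from 4.93 to 5.21 in CC30 and from 5.34 to 5.49 in RT30, without overlap, and was higher by 0.30 ± 0.04 (adjusted p = 0.000501). Ctsk, a lysosomal protease, was higher by 0.44 ± 0.09, Tnfrsf25, a death receptor, by 0.40 ± 0.08, and Stac3, an adaptor of calcium channels, by 0.39 ± 0.06. Lncpint, a long noncoding RNA, was higher by only 0.18 ± 0.03 (adjusted p = 0.00389), but without overlap, since its levels were held between 9.66 and 9.84 in CC30 and between 9.89 and 9.97 in RT30. The remaining ones were Plekhf1, Rn4.5s, Rhox9, Adam1a, Pvr, Acrbp, Siah2, Zfp948 and the transcript whose symbol is a sequence accession, with log2 fold changes from 0.16 to 0.34. A probe set listed with Mirg and Mir410, noncoding RNAs of an imprinted cluster, was higher by 0.29 ± 0.06 (adjusted p = 0.0484).

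The return to the chamber was also set against training alone, since FC24 mice had been trained but not returned. RT30 and FC24 differed in 54 probe sets (0.152% of those tested), 43 higher in RT30 (0.121%) and 11 lower (0.0309%). This comparison uses the same RT30 arrays. Of the 41 rises with 1 symbol called against CC30, 23 were also called against FC24, and of the 15 falls 4 were. Of all 18820 genes 0.213% were called in either direction. The 10 choroid plexus markers had a median log2 fold change of -0.27 between RT30 and FC24, with 0 called. Whether a difference in dissection had a part in this comparison was not tested. Of the 31 immediate early transcription factors 9 were higher and 0 were lower, and 6 of 40 effectors and 2 of 11 phosphatases were higher. Arc was higher in RT30 than in FC24 by 0.81 ± 0.06 (adjusted p = 1.98e-07), Fos by 0.83 ± 0.08 (adjusted p = 1.53e-05), Egr2 by 0.96 ± 0.10 (adjusted p = 6.79e-05) and Dusp1 by 0.71 ± 0.05 (adjusted p = 6.9e-08). The FC24 levels of Fos lay between 4.31 and 4.82 and those of Arc between 7.59 and 7.92, below every RT30 mouse. Snord14e was higher by 0.87 ± 0.11 (adjusted p = 0.000444), and Mir212 by 0.45 ± 0.05 (adjusted p = 5.71e-05). Of the falls, Mir219a-2 was lower by a log2 difference of -0.42 ± 0.09 (adjusted p = 0.0813) and Cldn5 by one of -0.18 ± 0.04 (adjusted p = 0.0839). Those of Sox18, at -0.24 ± 0.07 (adjusted p = 0.376), and Mir26a-1, at -0.33 ± 0.09 (adjusted p = 0.305), did not pass. Between FC24 and CC30, 0 probe sets were called by limma, with 1534 at an unadjusted p under 0.05.

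Retrieval was last set against training, both 30 min before dissection, and no single transcript passed the test. Between RT30 and FC30 0 of 35556 probe sets were called by limma, with 1386 at an unadjusted p under 0.05, and 0 by the methods' t-test. With PC1 found from deviations within groups, 165 were called, 5 higher and 160 lower in RT30. The 95% interval of the difference was from -0.22 to 0.15 for Arc, from -0.24 to 0.14 for Fos and from -0.14 to 0.15 for Dusp1. Egr2 was lower in RT30 than in FC30 by a log2 difference of -0.23, with an interval from -0.53 to 0.07. Fosb had a difference of -0.12, with an interval from -0.21 to -0.03 (unadjusted p = 0.0129, adjusted p = 1). Snord14e leaned the other way, with a difference of 0.32 and an interval from 0.09 to 0.54 (unadjusted p = 0.00856, adjusted p = 1). Against CC30, which both comparisons share, 91 probe sets were called in FC30 (0.256%), and Snord14e was higher by 1.14 ± 0.09 in RT30 and by 0.82 ± 0.07 in FC30, Egr2 by 1.04 ± 0.09 and 1.27 ± 0.13, and Fos by 0.77 ± 0.07 and 0.82 ± 0.09.

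No relation between early genes from mouse to mouse passed the test. Over the RT30 mice Fos and Egr1 had a Pearson r of 0.485 (exact permutation p = 0.184) and a Spearman rho of 0.583 (exact permutation p = 0.108). Fos and Dusp1 had an r of 0.436 (exact permutation p = 0.243) and a rho of 0.633 (exact permutation p = 0.076), and the r was -0.139 without the 2 mice farthest from the Fos median. For Fos and Arc the r was 0.0968 (exact permutation p = 0.811) and rho 0.35 (exact permutation p = 0.359). For Fos and Npas4 the r was 0.181 (exact permutation p = 0.638) and rho 0.0833 (exact permutation p = 0.843). In CC30 the 4 values of r lay between 0.164 and 0.557. Of the 8 relations computed, none passed after Benjamini-Hochberg adjustment, with adjusted p values from 0.485 to 0.811 for r and from 0.288 to 0.948 for rho.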

How the data were processed

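Total RNA of both hippocampi of each mouse was labelled and hybridised by the authors to whole-transcript arrays, 1 for each mouse. The authors deposited log2 values from RMA (background correction, quantile normalization and summary of probes), given to 2 decimals for 35556 probe sets. The genome build is not given in the sources used here. Each array's group was read from its label. As in the study's methods, PC1 was removed: every probe set was centred on its mean over the 72 arrays and the leading singular vector of the centred matrix was taken out. It carried 17.4% of the variance, a share computed here and not the one the methods state, and whether it is the same component as that of the study could not be checked. RT30 was then compared with CC30, FC30 and FC24 by limma 3.58.1 (lmFit and eBayes, R 4.3.3), fitting the 18 arrays of a comparison alone, and Benjamini-Hochberg adjustment, at 0.1 and 0.01. The methods used t-statistics and local false discovery rates, which were run as an alternative, written here after Efron's method and tested on simulated data. The locfdr package of the study was not run, and the version written here called fewer falls in RT30 than the study reports. The number of arrays limits the precision, and the median SE was 0.0508.

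Gene symbols came from the platform annotation (21218 probe sets with 1 symbol, 1881 with several, 12457 with none). Gene lists were counted by the brightest probe set of each gene (18820 genes). The groups, the lists and the naming rule were chosen with earlier results of these data known. The rule picked the 15 called probe sets with the largest increase and the 15 with the largest decrease, and genes the study names. It also picked up to 4 called members of each list in each direction, or else the 2 of smallest p. Not every gene picked is printed, and other genes were named after their values were seen. For Fos with 4 genes all orders of the 9 mice were enumerated in Python 3.11.15 with numpy 2.4.6. Sequences and 300-base promoter windows came from RefSeq tables of GRCm38.p6. The other settings, 13 in number, were no component or 2 components subtracted, PC1 as a covariate or from deviations within groups, all 8 groups in 1 fit, the methods' t-test with either adjustment, array weights, a robust fit with an intensity trend, no dim probe sets, only probe sets with 1 symbol, the replicate number as a block, and leaving out replicate 3 of CC30; 1 more was added after seeing the data. Quantitative PCR and protein measurements were not analysed here.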

Additional observations from a re-analysis of the deposited data

Results flagged for a closer look

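Single mice were distant from the others of a group in 10 of the 118 combinations of group and quantity examined, where chance gives about 1 in 20. A mouse was counted where its gap to the nearest other mouse, over the range of its group, passed Dixon's critical value for 9 samples. Replicate 3 of CC30 had a PC1 score of 28.78. Among RT30 mice, Egr2 was low in replicate 7 at 5.7289, Mir32 low in replicate 4 at 4.7111 and 4632427E13Rik low in replicate 5 at 9.5899. Mir497 was high in replicate 9 at 5.4823, Mir212 high in replicate 2 at 6.9451 and Tm6sf2 high in replicate 6 at 7.3171. Among CC30 mice, Ctsk was high in replicate 7 at 5.1584, Pvr high in replicate 8 at 6.93 and Mir181c high in replicate 1 at 6.9944. The values of genes are log2 RMA levels, and no cause was tested.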

How the results depend on the processing

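The number of arrays and the small size of the changes limit these results. Of the 56 called probe sets with 1 symbol, 18 were called in all 14 settings, 33 in at least 12, and 0 changed direction. For RT30 against CC30, 99 calls became 149 (81 higher, 68 lower) with all 8 groups in 1 fit. They became 33 (29 higher, 4 lower) with the t-test and the local false discovery rates written here, where Rad52 and 2900052L18Rik were the called falls with 1 symbol. They became 64 (45 higher, 19 lower) without replicate 3 of CC30 when PC1 was found again, and 66 without it when PC1 was kept. With the replicate number as a block they became 47 (33 higher, 14 lower), and 24 of the 56 stayed called, with 3 of the 7 microRNA falls among them and neither Sox18 nor Cldn5. Npas4, Junb, Egr1, Ddit4, Gadd45b and Sgk1 were among the rises no longer called, and 13 of the 82 early genes were higher. The labels do not say that a number marks a shared day: deviations of RT30 and CC30 mice of 1 number correlated by -0.0717 to 0.12, over 0.1 in 1 of 9 pairs, and 1 of 9 mice correlated best with its own number. For RT30 against FC30, 0 calls became 165 (5 higher, 160 lower) with PC1 from deviations within groups. For RT30 against FC24, 54 calls became 101 (82 higher, 19 lower) in that setting, and 22 (22 higher, 0 lower) with local false discovery rates. The cause was not tested. All other settings kept these counts within 1.5 times.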
